A study of Mus musculus with 18 samples.

Results

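Repeated exposure to amphetamine was compared with a single day of exposure in the mouse striatum. The comparison set 3 amphetamine-treated mice sampled on day 7 against 3 amphetamine-treated mice sampled on day 1. These 6 libraries were chosen by their treatment and day labels out of 18, and the genes by a mean FPKM of at least 1 over the 18 libraries, where FPKM is the fragment count of a gene divided by its transcript length and by the size of the library. Of 29942 gene names, 13975 reached that level and were tested. At the edge of this filter, mKIAA1612 had a mean of 1.00032 FPKM and was kept, and Ccdc138 had a mean of 0.999952 FPKM and was not.

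The study measured polyA RNA of the striatum of both hemispheres, dissected above the anterior commissure, in 18 sibling mice of the strain 129Sv/Jae S4. The mice were matched for age and sex and housed in groups, and 3 of them entered each of 6 groups: amphetamine or saline on days 1, 7 and 21. Both amphetamine groups received intraperitoneal D-amphetamine hemisulfate dissolved in 0.9% saline, 10 ml/kg per injection and 7 mg/kg in total each day, and both saline groups of days 1 and 7 received intraperitoneal 0.9% saline. The age, the sex, the number of daily injections and the interval between the last injection and tissue collection are not given in the labels.

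Amphetamine releases dopamine and other monoamines from nerve terminals, and the striatum is the brain region with the densest dopamine input. Dopamine acting on D1 receptors of direct-pathway projection neurons raises cAMP and activates ERK kinase, and both routes switch on immediate-early genes such as Fos, Egr1 and Arc, which encode transcription factors and synaptic regulators and are transcribed within minutes. Repeated psychostimulant exposure is known to alter this first wave of transcription and to raise peptides of the direct pathway, among them dynorphin, and the immediate-early response to a later dose can be smaller or larger than that to an earlier one.

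The number of reads behind each library was unknown. The spacing of low FPKM values gave a relative depth, which averaged 0.811 of the deepest library in the day 1 amphetamine group and 0.822 in the day 7 amphetamine group. Correlations of log2 values were 0.923 to 0.934 between animals of the same day and 0.917 to 0.941 between amphetamine animals of different days. The label numbers of the libraries fell into 3 ranges, 6377 to 6391, 6448 to 6457 and 6485 to 6504. All 3 day 1 amphetamine libraries lay in the highest range, and the day 7 amphetamine libraries lay in the lowest (2) and the middle (1). No range held amphetamine libraries of both days, so day and number range cannot be told apart within these 6 libraries, and the labels do not say what the number stands for. In saline animals the lowest range held 1 day 1 and 2 day 7 libraries. Some fits below take the number range as a covariate. There the step between the highest range and the others was estimated from saline and day 21 libraries and assumed equal in every group. Such a fit cannot separate day from range in the amphetamine libraries of days 1 and 7. Both amphetamine libraries numbered replicate 3 stood apart. Of the 6 libraries, replicate 3 of day 1 had the largest sum of FPKM (595573) and replicate 3 of day 7 the smallest (533020). The counts that follow used FPKM without rescaling, and the part of these sums in them was not tested. Day 1 amphetamine replicate 3 held the highest of the 6 values for 33.9% of all tested genes and for 40 of 53 immediate-early genes, and day 7 amphetamine replicate 3 held the lowest for 25.6% of all tested genes. Gene list values that moved without one of them are given both ways. Defining striatal transcripts were abundant in every amphetamine library: Ppp1r1b, which encodes the dopamine-regulated phosphatase inhibitor DARPP-32, lay between 1019 and 1333 FPKM, and Penk, the enkephalin precursor, between 1097 and 1415 FPKM.

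No transcript passed the test between day 7 and day 1 of amphetamine. Of 13975 genes, 0 (0%) had a limma adjusted p under 0.05, and the smallest adjusted p was 0.169. At an unadjusted p under 0.05, 1325 genes (9.48%) differed, where chance alone gives 699. Of these, 347 (2.48% of those tested) were higher and 978 (7%) were lower on day 7. That imbalance moved with the scaling of the libraries: with each library rescaled by the median of its ratios to the mean of all, 641 were higher and 490 lower, and after quantile normalization 660 were higher and 496 lower. The count of 1325 became 838 without day 7 replicate 3 and 900 without day 1 replicate 3, and 2175 when libraries were weighted by their quality. The 2 groups of 3 animals did not overlap for 1991 genes (14.2%), with 496 (3.55%) higher and 1495 (10.7%) lower on day 7. The median log2 difference over all tested genes was -0.05, and the median standard error of a gene's difference was 0.11. By value 65% of all tested genes were lower on day 7. After rescaling by the median of ratios that share was 49.97% (median 0), and with the number range as a covariate 54.9% (median -0.02). Direction counts of gene lists under these settings are to be read beside those shares. The same 2 days in saline animals gave 1 gene past the threshold (0.00716%) and 809 genes at an unadjusted p under 0.05 (5.79%; 2.58% higher and 3.21% lower). In those animals 45.6% of genes were higher and 53.9% lower by value on day 7, and the days did not overlap for 9.29%. All differences below are day 7 minus day 1 on the log2(FPKM + 1) scale with limma standard errors, n = 3 animals a group, and every adjusted p is limma's with the Benjamini-Hochberg method over all tested genes. None of the amphetamine differences named below passed at 0.05, so they are given as values. Where a transcript marks a cell type, a smaller share of such cells and less RNA per cell cannot be told apart in whole tissue.

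**Figure D1:**
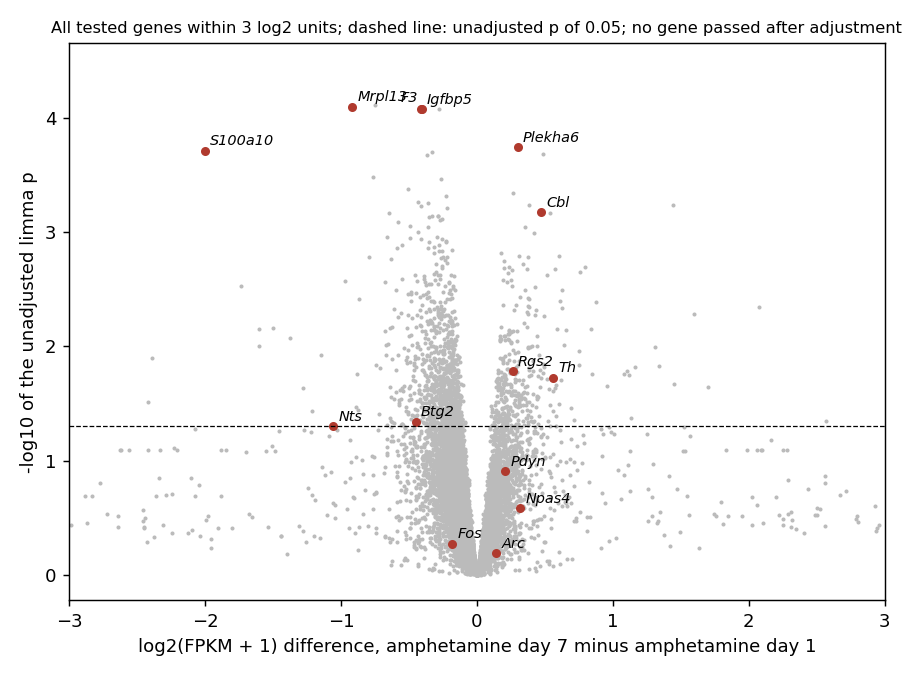
Each point is a tested gene: the horizontal axis is the amphetamine day 7 minus day 1 difference on the log2(FPKM + 1) scale, drawn within 3 units, and the vertical axis is minus log10 of the unadjusted limma p, with some named genes in red and a dashed line at 0.05. Left out of the drawing are 56 genes beyond that range; of all tested genes, 978 on the left and 347 on the right lie above the line, and none passed an adjusted p of 0.05.

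The immediate-early genes Fos and Btg2 lay above the saline values on both amphetamine days, and no immediate-early difference between those days passed the test. Fos, which pairs with Jun proteins in the AP-1 factor, measured 20.2, 16.1 and 36.8 FPKM in the 3 day 1 animals and 17.1, 23.1 and 20.6 FPKM in the 3 day 7 animals. All 6 values lay above the saline values, which were 4.47 to 6.60 FPKM on day 1 and 2.75 to 3.86 FPKM on day 7, while the amphetamine days overlapped each other. The Fos difference was -0.18 ± 0.28 (SE), with a 95% interval from -0.79 to 0.43 (limma adjusted p = 0.852). Btg2, an antiproliferative immediate-early gene, measured 9.51, 8.76 and 15.7 FPKM on day 1 and 5.79, 9.78 and 8.15 FPKM on day 7, against 1.56 to 3.05 FPKM in saline animals of both days. Its difference of -0.45 ± 0.21 was the most negative of the immediate-early genes shown by animal here, with an interval from -0.89 to -0.01 (limma adjusted p = 0.521). Npas4, a neuron-specific factor that follows calcium entry, measured 6.63, 8.94 and 15.4 FPKM on day 1 and 12.2, 13.1 and 11.8 FPKM on day 7. Here the day 7 values lay close together and above those of day 1 replicates 1 and 2, and the difference was 0.32 ± 0.27 (interval -0.26 to 0.89, limma adjusted p = 0.703).

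The promoters of these 3 genes are shown because cAMP and calcium signals reach immediate-early genes through the CREB-binding cAMP response element. Each sequence is the 250 bases before the RefSeq transcription start in GRCm38.p6, printed 5′ to 3′ on the gene's strand, with the element's core motif TGACG in capitals on either strand (CGTCA where it lies on the other strand). Fos lies on the plus strand at chr12:85473640-85473889, Btg2 on the minus strand at chr1:134079156-134079405 and Npas4 on the minus strand at chr19:4989972-4990221.
Fos: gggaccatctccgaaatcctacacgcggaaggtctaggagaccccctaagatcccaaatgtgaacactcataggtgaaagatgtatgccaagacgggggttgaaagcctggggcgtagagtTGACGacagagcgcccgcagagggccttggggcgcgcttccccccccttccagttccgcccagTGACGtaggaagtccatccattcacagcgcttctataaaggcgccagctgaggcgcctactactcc
Btg2: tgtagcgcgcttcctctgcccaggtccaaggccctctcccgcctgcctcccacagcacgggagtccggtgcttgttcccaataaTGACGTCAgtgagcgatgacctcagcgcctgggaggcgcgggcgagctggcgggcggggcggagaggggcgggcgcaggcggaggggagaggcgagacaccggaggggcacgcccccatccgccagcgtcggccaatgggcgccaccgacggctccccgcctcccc
Npas4: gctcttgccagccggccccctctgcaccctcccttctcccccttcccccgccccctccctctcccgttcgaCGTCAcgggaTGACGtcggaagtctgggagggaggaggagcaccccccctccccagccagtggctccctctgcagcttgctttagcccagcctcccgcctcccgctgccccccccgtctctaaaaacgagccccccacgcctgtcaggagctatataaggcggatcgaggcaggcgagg
Fos has core motifs that begin 129 and 66 bases before the start. In Btg2 the sense and antisense core motifs overlap and form the full palindrome TGACGTCA, and in Npas4 an antisense and a sense core motif begin 179 and 169 bases before the start. The start of Btg2 differs between annotations: its nearest GENCODE vM21 transcript begins 35 bases downstream of the RefSeq start, where for Fos and Npas4 the distance is 0. Of 32851 RefSeq promoter entries of the same length, 17.8% hold the core motif and 1.55% the full palindrome. Of the tested genes 8750 had an entry by symbol, which are too few of the 13975 for a comparison of gene lists. Of these genes 31.3% held the core motif and 3.2% the full palindrome in any of their entries. These shares count genes where the ones before count entries, so they are not on the same basis. A match of letters is a description of the sequence and was not tested as a binding site.

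In the other transcription factors of the first wave, day 1 replicate 3 was the highest day 1 animal of each gene given here. Egr1, a zinc finger factor downstream of ERK, measured 102, 143 and 207 FPKM on day 1 and 150, 156 and 160 FPKM on day 7, a difference of 0.10 ± 0.20 (interval -0.33 to 0.53). The day 7 animals of Egr1 thus lay within the range of the day 1 animals. Junb, another AP-1 subunit, measured 74.2, 70.8 and 154 FPKM on day 1 and 76.2, 96.5 and 91.6 FPKM on day 7, a difference of -0.09 ± 0.25 (interval -0.63 to 0.46). Egr2, a relative of Egr1, measured 10.2, 14.3 and 30.3 FPKM on day 1 and 11.3, 14.2 and 11.7 FPKM on day 7, a difference of -0.39 ± 0.34. In Junb and Egr2 only replicate 3 of day 1 lay above all day 7 animals by a wide margin. Nr4a1, an orphan nuclear receptor, was at 40.5, 39.9 and 81.1 FPKM on day 1 and at 64.7, 51.6 and 57.0 FPKM on day 7 (0.17 ± 0.26). Fosb and Egr3 differed by -0.21 ± 0.19 and -0.18 ± 0.13, with the highest day 1 value again in replicate 3, at 17.03 and 115 FPKM.

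Among the effectors, Arc, which regulates the synaptic cytoskeleton and glutamate receptor traffic, measured 47.8, 61.9 and 130 FPKM on day 1 and 69.5, 90.8 and 82.8 FPKM on day 7. Its group means were 80.0 ± 44.2 and 81.1 ± 10.7 FPKM (SD, n = 3), and its difference was 0.14 ± 0.30 (interval -0.50 to 0.79). Dusp1, a phosphatase that switches off MAP kinases, measured 27.7, 25.1 and 46.5 FPKM on day 1 and 23.3, 32.1 and 31.3 FPKM on day 7 (-0.15 ± 0.21). Homer1, a postsynaptic scaffold, and Plk2, a kinase of synaptic scaling, differed by 0.06 ± 0.10 and -0.01 ± 0.09. Rgs2, which speeds the shutdown of G protein signals, measured 45.6, 48.6 and 58.2 FPKM on day 1 and 65.1, 57.3 and 60.4 FPKM on day 7, against 42.3 to 51.3 FPKM in saline animals. Day 7 replicate 2 of Rgs2 lay below day 1 replicate 3, so the groups overlapped, and the difference was 0.26 ± 0.10 (limma adjusted p = 0.464). Bdnf, the neurotrophin, was at most 0.379 FPKM in the 6 libraries and was not tested.

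**Figure D2:**
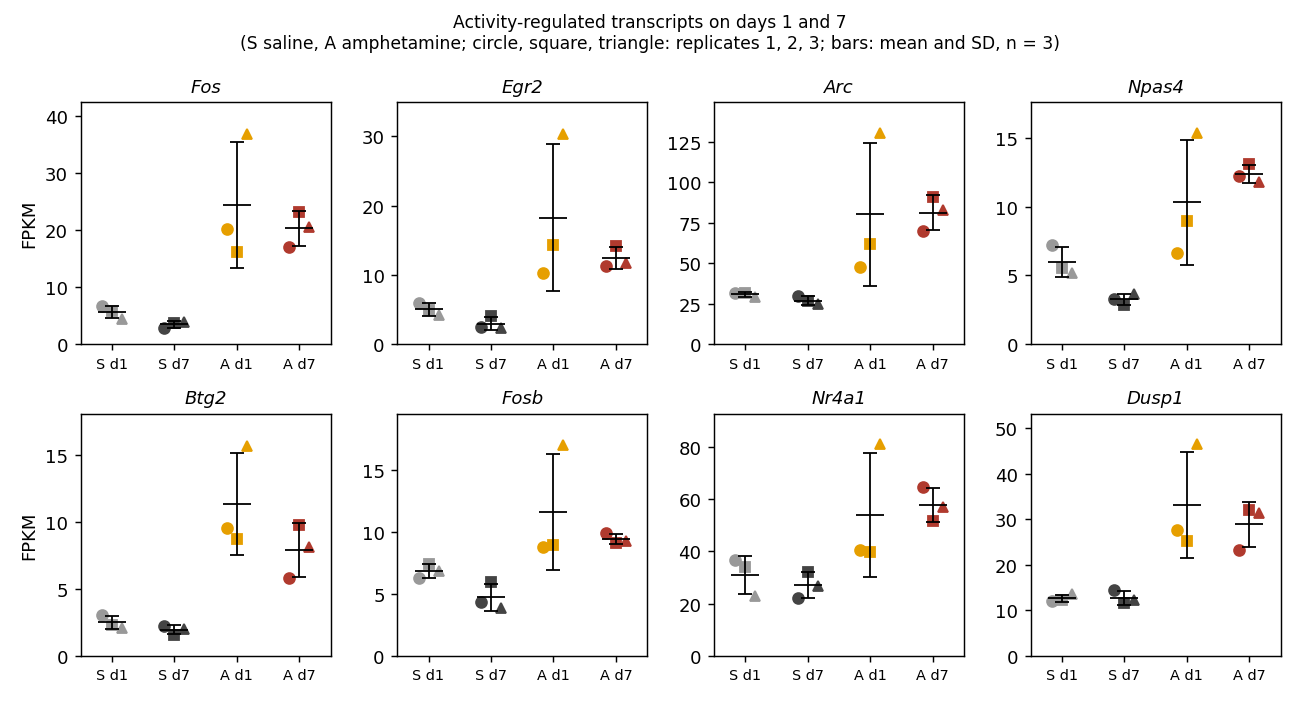
FPKM of 8 activity-regulated genes in each of the 12 animals of days 1 and 7 by group (S saline, A amphetamine, d day; symbols mark replicates, bars the mean and SD, n = 3). The amphetamine groups of the 2 days overlap in each panel, and day 1 replicate 3 (triangle) is the highest amphetamine animal for most genes, with Fos at 36.8 FPKM.

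Of 58 immediate-early genes listed, 53 passed the filter on low values (30 of 33 transcription factors and 23 of 25 effectors). On day 7, 16 of the 53 were higher and 37 lower, beside 34.4% and 65% of all tested genes, 0 passed the test in either direction, and the median difference was -0.12 beside -0.05 over all genes. At an unadjusted p under 0.05, 1 was higher and 5 were lower (beside 2.48% and 7% of all genes). The groups did not overlap for 6 genes (11.3%), all lower on day 7, beside 10.7% of all tested genes. Of these, Myc, a growth-promoting factor, measured 2.63, 1.97 and 2.45 FPKM on day 1 and 1.63, 1.69 and 1.44 FPKM on day 7, a difference of -0.37 ± 0.11 (limma adjusted p = 0.414). Mafk, a small Maf factor, went from 3.07 to 3.56 FPKM on day 1 to 2.24 to 2.64 FPKM on day 7 (-0.35 ± 0.14). Without day 1 replicate 3, 16 transcription factors were higher and 14 lower (median 0.01), and 12 effectors were higher and 11 lower (median 0.03), where with it the counts were 10 and 20 (median -0.13) and 6 and 17 (median -0.10). The direction of both lists therefore turned with that library. Without day 1 replicate 1, 7 transcription factors were higher and 23 lower (median -0.20), and 4 effectors were higher and 19 lower (median -0.16).

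The median spread among day 1 animals was larger with replicate 3 than without it. The SD of log2 values over the 3 animals was larger on day 1 than on day 7 for 46 of the 53 immediate-early genes (86.8%) and for 57.4% of all tested genes. The median SD of the immediate-early genes was 0.26 on day 1 and 0.11 on day 7, and over all genes 0.12 and 0.10. Without day 1 replicate 3, the SD over the other day 1 animals was larger for 29 of the 53 (54.7%) and for 41.9% of all genes, and the medians on day 1 were 0.10 and 0.09. These are descriptions of few animals, and that replicate was the highest of the 6 libraries for 75.5% of the immediate-early genes. The leave-out was chosen after the data were seen, and set 2 day 1 animals against 3 day 7 animals. No day 7 animal was left out in turn, so how much of the spread came from that replicate cannot be told.

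Of the ERK feedback regulators, which include the Dusp phosphatases and the Sprouty and Spred proteins, 4 of 15 tested members were higher and 11 lower (median -0.03). After rescaling by the median of ratios, where 49.97% of all tested genes were lower, 10 were higher and 5 lower. Without day 1 replicate 3, where 61.04% of all tested genes were lower, they were also 10 and 5 (median 0.11). Spred2, an inhibitor of the Ras to ERK step, measured 18.6, 17.2 and 18.9 FPKM on day 1 and 20.2, 19.8 and 20.8 FPKM on day 7, without overlap (0.15 ± 0.06, limma adjusted p = 0.481). Late activity-regulated genes, the second wave, had 5 of 13 higher and 8 lower (median -0.06). Their median was -0.01 after that rescaling and also without day 1 replicate 3 (6 higher and 7 lower). With the number range of the labels as a covariate, where 54.9% of all tested genes were lower, 9 were higher and 4 lower (median 0.05). Of these genes, Nptx1, a synaptic pentraxin, had a difference of -0.33 ± 0.23.

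Peptide and receptor genes of the projection neurons had no difference past the test between the amphetamine days, and several had larger differences by value between the saline days. Pdyn, the dynorphin precursor of direct-pathway neurons, measured 54.0, 52.0 and 60.8 FPKM on day 1 of amphetamine and 62.7, 70.8 and 59.8 FPKM on day 7. In saline animals it measured 67.5, 66.4 and 57.2 FPKM on day 1 and 32.1, 47.8 and 45.9 FPKM on day 7. The amphetamine days of Pdyn overlapped and the saline days did not. The day difference was 0.21 ± 0.13 under amphetamine (interval -0.06 to 0.48) and -0.61 ± 0.13 under saline, and the difference between them was 0.82 ± 0.18 (interval 0.43 to 1.21, limma adjusted p = 0.693). Oprk1, the receptor for dynorphin, measured 5.95, 5.43 and 3.41 FPKM on day 1 and 5.42, 5.28 and 8.86 FPKM on day 7, a difference of 0.34 ± 0.22, beside -0.53 ± 0.22 in saline animals. The Oprk1 day 7 mean of 6.52 FPKM was carried by replicate 3. Npas4, given above, differed by -0.71 ± 0.27 between the saline days, and its 2 day differences were 1.02 ± 0.38 apart (limma adjusted p = 0.924).

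Penk, Tac1, Drd1a and Drd2 differed by 0.10 or less between the amphetamine days. Penk differed by 0.10 ± 0.10 and Tac1, the substance P precursor, by 0.08 ± 0.12. Drd1a, the D1 receptor gene, measured 95.2, 98.7 and 105 FPKM on day 1 and 102, 95.9 and 111 FPKM on day 7, a difference of 0.04 ± 0.06 with an interval from -0.09 to 0.18. Drd2, the D2 receptor gene, differed by -0.01 ± 0.12 (interval -0.27 to 0.26) and Ppp1r1b by 0.04 ± 0.13. Drd5, a D1-like receptor gene near the filter on low values, measured 0.907, 1.06 and 1.08 FPKM on day 1 and 1.47, 1.20 and 1.31 FPKM on day 7, without overlap (0.21 ± 0.11). Adora2a, an adenosine receptor gene of indirect-pathway neurons, differed by -0.01 ± 0.11 under amphetamine and by 0.41 ± 0.11 in saline animals (difference -0.42 ± 0.15, limma adjusted p = 0.924). Rasgrp2, a Rap1 activator enriched in the striatal matrix, showed 0.04 ± 0.10 and 0.36 ± 0.10 in the same order, and its relative Rasgrp1 showed 0.06 ± 0.07 and 0.12 ± 0.07. Cnr1, the cannabinoid receptor gene, measured 86.6, 85.5 and 70.0 FPKM on day 1 and 99.9, 77.7 and 97.5 FPKM on day 7 of amphetamine (0.18 ± 0.14). In saline animals Cnr1 went from 57.1 to 69.3 FPKM on day 1 to 96.8 to 128 FPKM on day 7 (0.82 ± 0.14, limma adjusted p = 0.151).

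Of 19 tested opioid, dopamine, adenosine and muscarinic receptors, 11 were higher and 8 lower on day 7 of amphetamine (median 0.03), and 0 passed. At an unadjusted p under 0.05, 1 was higher and 0 lower, beside 2.48% and 7% of all genes. This was Oprd1, the delta opioid receptor gene, at 7.23, 7.33 and 5.29 FPKM on day 1 and 8.34, 7.05 and 9.71 FPKM on day 7 (0.30 ± 0.14). After rescaling by the median of ratios 16 were higher and 3 lower. That rescaling moved the share of all tested genes that were lower from 65% to 49.97%. Of 24 genes of striatal cAMP and dopamine signalling, 17 were higher and 7 lower (median 0.04), and 22 and 2 after that rescaling; without day 7 replicate 3 they were even, 12 and 12, and 8 of the 19 receptors were higher and 11 lower (median -0.04). That replicate held the highest of the 6 values for 12 of these 24 genes and for 10 of the 19 receptors. Of 13 tested neuropeptide precursors, 5 were higher and 8 lower (median -0.04), and 7 and 6 after rescaling. Nts, the neurotensin precursor, measured 4.75, 5.28 and 9.04 FPKM on day 1 and 1.81, 4.66 and 1.52 FPKM on day 7, without overlap, a difference of -1.06 ± 0.49 (limma adjusted p = 0.527). Cartpt measured 3.85, 3.70 and 2.39 FPKM on day 1 and 3.25, 4.40 and 1.77 FPKM on day 7 (-0.09 ± 0.39), beside -1.20 ± 0.39 in saline animals.

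Direct-pathway markers were split 6 higher and 7 lower (median -0.03, and 9 and 4 after rescaling by the median of ratios). Indirect-pathway markers were split 7 and 6 (median 0.02, and 11 and 2 after rescaling). After that rescaling 49.97% of all tested genes were lower, beside 65% before it. Striosome markers were split 6 and 6 (median 0.01) and matrix markers 5 and 4 (median 0.02). At an unadjusted p under 0.05, 1 indirect-pathway marker was higher (Oprd1) and 2 were lower (15.4%), beside 2.48% and 7% of all genes. The 2 were Sp9 (-0.24) and Adk (-0.22), both without overlap (15.4%, beside 10.7%). Between the saline days 12 indirect-pathway markers were higher and 1 lower (median 0.14), and direct-pathway markers were split 5 and 8 (median -0.07). Lypd1, a striosome marker that modulates nicotinic receptors, measured 25.5, 25.6 and 27.1 FPKM on day 1 and 16.1, 22.9 and 16.6 FPKM on day 7, without overlap (-0.49 ± 0.16, limma adjusted p = 0.423). Among the interneuron markers, Th, the rate-limiting enzyme of dopamine synthesis, measured 2.64, 2.79 and 3.84 FPKM on day 1 and 3.59, 5.64 and 6.02 FPKM on day 7 (0.56 ± 0.21). Pvalb, the calcium buffer of fast-spiking interneurons, measured 21.6, 21.1 and 21.6 FPKM on day 1 and 13.5, 18.1 and 6.02 FPKM on day 7, without overlap (-0.84 ± 0.48). The Pvalb values of saline animals ran from 4.80 to 20.2 FPKM over both days, so the saline animals covered most of the range between the amphetamine days.

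**Figure D3:**
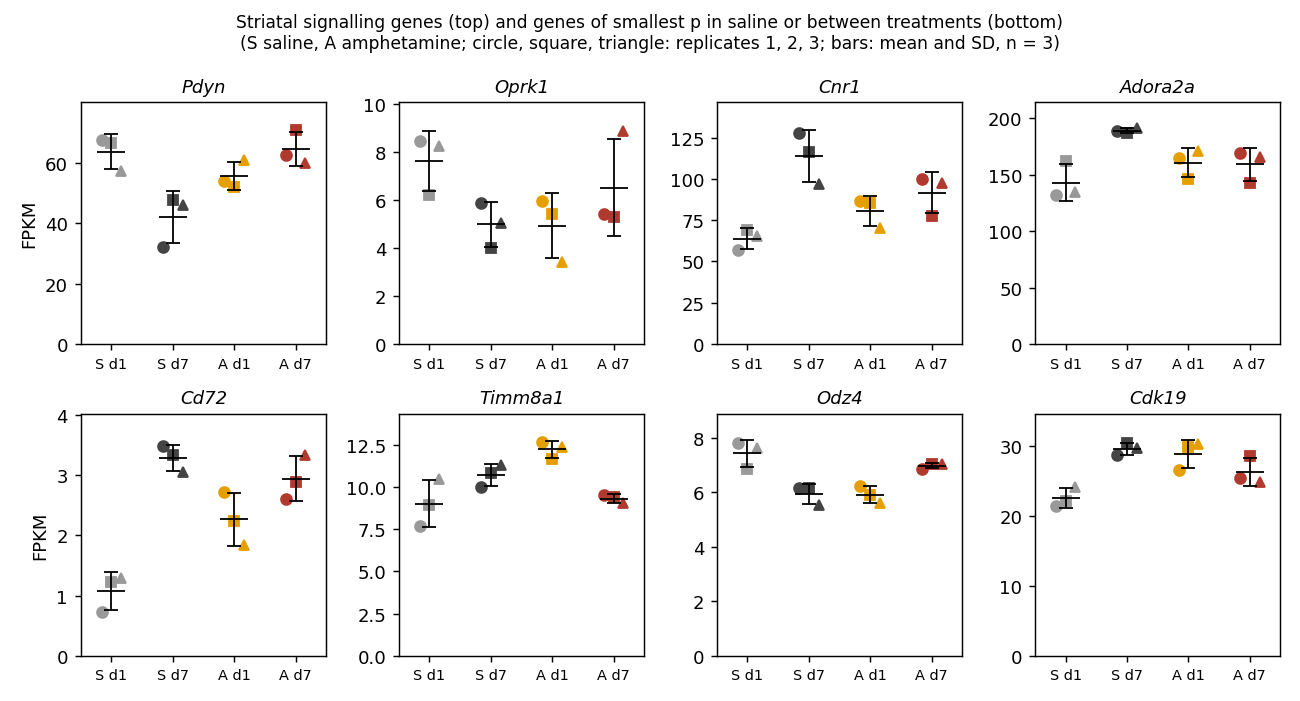
FPKM by animal in the 4 groups of days 1 and 7 (S saline, A amphetamine, d day; symbols mark replicates, bars the mean and SD, n = 3) for striatal signalling genes and for genes of smallest p in saline animals or between treatments. Pdyn differs by -0.61 between the saline days and by 0.21 between the amphetamine days on the log2 scale.

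The transcripts of smallest p between the amphetamine days came from several functions. Among those higher on day 7, Plekha6, a pleckstrin-homology protein of cell junctions, measured 14.05, 13.79 and 13.02 FPKM on day 1 and 16.50, 16.51 and 17.99 FPKM on day 7, a difference of 0.30 ± 0.06 (limma adjusted p = 0.246). Ncan, which encodes the matrix proteoglycan neurocan, measured 17.3, 16.7 and 18.1 FPKM on day 1 and 20.7, 19.7 and 23.0 FPKM on day 7 (0.27 ± 0.06, limma adjusted p = 0.342). In both genes the days did not overlap, and the rule that picked them required this. Cbl, a ubiquitin ligase that turns off receptor tyrosine kinases, measured 5.50, 4.67 and 3.78 FPKM on day 1 and 6.92, 6.62 and 6.77 FPKM on day 7 (0.47 ± 0.11), while its saline values of 4.98 to 6.42 FPKM overlapped on the 2 days. Baz1b, a chromatin-remodelling subunit, measured 8.76, 9.63 and 7.62 FPKM on day 1 and 10.8, 11.4 and 11.7 FPKM on day 7 (0.35 ± 0.08). Cacna1e, the pore of R-type calcium channels, measured 21.1, 22.5 and 18.6 FPKM on day 1 and 27.4, 25.3 and 28.7 FPKM on day 7 (0.38 ± 0.10). The saline animals of Cacna1e went the other way by value, -0.12 ± 0.10, and the 2 day differences were 0.50 ± 0.14 apart (limma adjusted p = 0.915). The others were Zswim7 (0.38 ± 0.09), which acts in homologous recombination, Nsmce2 (0.18 ± 0.05), a SUMO ligase, Dzip1l (0.31 ± 0.08), a ciliary protein, and Eps15l1 (0.20 ± 0.05), an endocytic adaptor.

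Among those lower on day 7, Mrpl13, a protein of the mitochondrial ribosome, measured 20.5, 22.1 and 21.7 FPKM on day 1 and 8.45, 11.8 and 12.7 FPKM on day 7 with a day 1 mean 1.95 times that of day 7 (-0.92 ± 0.17, limma adjusted p = 0.169). Saline animals ranged from 11.8 to 19.7 FPKM over both days. S100a10, the p11 protein that binds annexin A2 and brings receptors to the membrane, measured 34.9, 20.6 and 22.5 FPKM on day 1 and 5.21, 5.85 and 5.68 FPKM on day 7 with a day 1 mean 4.66 times that of day 7 (-2.00 ± 0.40, limma adjusted p = 0.246). One day 1 saline animal, at 18.4 FPKM, also lay near the day 1 amphetamine animals for S100a10, and the other 5 saline values were 4.84 to 7.93 FPKM. Igfbp5, an insulin-like growth factor carrier, measured 22.8, 23.4 and 26.8 FPKM on day 1 and 18.1, 19.1 and 16.9 FPKM on day 7 (-0.41 ± 0.08). F3, tissue factor, measured 26.0, 20.8 and 23.9 FPKM on day 1 and 16.96, 18.1 and 17.4 FPKM on day 7 (-0.40 ± 0.07), and passed only when libraries were weighted by their quality, at -0.48 (limma adjusted p = 0.0393). Acsl3, which activates long-chain fatty acids, measured 50.5, 52.2 and 54.3 FPKM on day 1 and 43.9, 45.9 and 39.2 FPKM on day 7 (-0.28 ± 0.05), beside -0.13 ± 0.05 in saline animals. For Igfbp5 and F3 the saline days overlapped, with saline differences of -0.04 ± 0.08 and -0.06 ± 0.07. The remaining ones were Fnta, the farnesyltransferase alpha subunit (-0.33 ± 0.07), Cdo1, cysteine dioxygenase (-0.37 ± 0.07), Laptm4a, a lysosomal membrane protein (-0.26 ± 0.06), Mrpl9, a second mitochondrial ribosomal protein (-0.51 ± 0.11), and Add3, a membrane skeleton protein (-0.22 ± 0.05). Across these genes, chosen for small p and separate groups, the direction is set by the choice and is no evidence of its own.

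**Figure D4:**
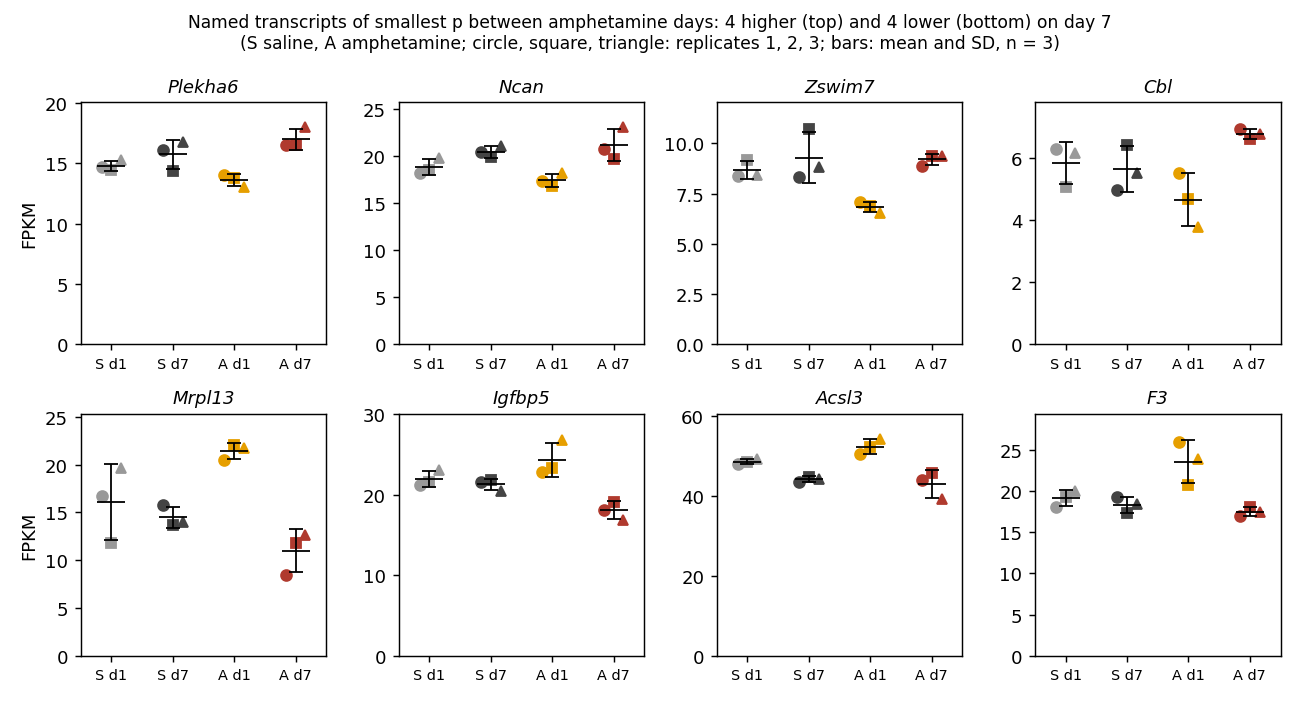
FPKM by animal for the 4 named genes of smallest p that were higher (top) and the 4 that were lower (bottom) on amphetamine day 7, with saline groups beside them (S saline, A amphetamine, d day; symbols mark replicates, bars the mean and SD, n = 3). The amphetamine days do not overlap in any panel because the naming rule required it, and no gene passed an adjusted p of 0.05.

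Ion channel, synaptic and chromatin genes had list medians close to 0. Of the 36 lists, 19 had a median within 0.05 of 0, and in 14 of them leaving out 1 of the 6 libraries turned its sign, so no direction is read from these. Of 37 potassium channel genes, 18 were higher and 19 lower (median -0.01), and 22 and 15 after rescaling by the median of ratios. After that rescaling 49.97% of all tested genes were lower, beside 65% before it. At an unadjusted p under 0.05, 5 of the 37 were higher and 0 lower, beside 2.48% and 7% of all genes. The counts were 3 and 0 without day 1 replicate 3, beside 1.97% and 4.47% of all genes. Without day 7 replicate 3 they were 2 and 1, beside 1.74% and 4.26%. Kcnt1, a sodium-activated channel, measured 28.7, 28.9 and 30.0 FPKM on day 1 and 36.2, 33.2 and 34.7 FPKM on day 7 (0.24 ± 0.08, limma adjusted p = 0.415). Kcnq5, a subunit of the M current, measured 28.0, 24.6 and 24.2 FPKM on day 1 and 30.0, 27.8 and 37.6 FPKM on day 7 (0.29 ± 0.10), with 31.4 to 36.9 FPKM on saline day 1 and 27.8 to 31.8 FPKM on saline day 7. The Kcnq5 day differences of the 2 treatments were 0.50 ± 0.14 apart (limma adjusted p = 0.915). Of 41 histone and DNA modifying enzymes, 21 were higher and 20 lower (25 and 16 after rescaling). At an unadjusted p under 0.05, 4 were higher and 1 lower, beside 2.48% and 7% of all genes. Without day 1 replicate 3 the counts were 3 and 2, beside 1.97% and 4.47% of all genes. Without day 7 replicate 3 they were also 3 and 2, beside 1.74% and 4.26%. Dnmt3a, a de novo DNA methyltransferase, measured 12.8, 12.8 and 10.9 FPKM on day 1 and 13.7, 14.1 and 15.7 FPKM on day 7 (0.24 ± 0.06, limma adjusted p = 0.381). Hdac7, a class II histone deacetylase, measured 1.54, 1.61 and 1.63 FPKM on day 1 and 2.26, 2.11 and 1.89 FPKM on day 7 (0.25 ± 0.07). In both, every day 7 animal lay above every day 1 animal. Kat2b, a histone acetyltransferase, lay lower by value, at 8.94, 9.11 and 9.70 FPKM on day 1 and 7.18, 8.53 and 6.93 FPKM on day 7 (-0.27 ± 0.07), with -0.23 ± 0.07 in saline animals.

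Of 31 synaptic vesicle genes, 13 were higher and 18 lower (median -0.04), and 21 and 10 after rescaling by the median of ratios. After that rescaling 49.97% of all tested genes were lower, beside 65% before it. Bsn, a scaffold of the presynaptic active zone, measured 18.4, 18.2 and 14.7 FPKM on day 1 and 19.6, 20.2 and 23.2 FPKM on day 7 (0.29 ± 0.11). Of 43 glutamate receptor and scaffold genes, 28 were higher and 15 lower (median 0.03), and 35 and 8 after that rescaling. Of 23 GABA genes, 6 were higher and 17 lower (median -0.04), and 13 and 10 after that rescaling. Gabrb1, a GABA-A receptor subunit gene, measured 7.81, 8.84 and 7.15 FPKM on day 1 and 9.68, 9.57 and 10.8 FPKM on day 7, without overlap (0.31 ± 0.11). Among growth factors, Vegfa measured 20.6, 26.5 and 24.4 FPKM on day 1 and 33.5, 28.4 and 31.2 FPKM on day 7 (0.37 ± 0.14), and differed by 0.58 ± 0.14 in saline animals.

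Markers of myelin-forming cells had lower values on day 7 as a group. All 21 oligodendrocyte and myelin markers had a negative difference (median -0.39), where 65% of all tested genes had one, and 0 passed the test. The groups of 3 did not overlap for 2 of the 21 (9.52%), beside 10.7% of all genes, and 4 were lower at an unadjusted p under 0.05 (19.05%, beside 7%). No marker was so without day 1 replicate 3, nor without day 7 replicate 3. Without day 1 replicate 2, 8 were lower at an unadjusted p under 0.05 (beside 8.97% of all genes, median -0.52). Without day 7 replicate 2, 12 were (beside 8.24%, median -0.57). Their summed level was 2128, 2374 and 3466 FPKM in the day 1 animals and 1393, 2039 and 2447 FPKM in the day 7 animals. Olig2, a transcription factor of the lineage, measured 10.6, 9.05 and 12.9 FPKM on day 1 and 6.89, 8.91 and 5.99 FPKM on day 7 (-0.52 ± 0.19, limma adjusted p = 0.453). Mbp, the myelin basic protein gene and here chosen after its values were seen, measured 936, 857 and 1486 FPKM on day 1 and 797, 991 and 532 FPKM on day 7 (-0.50 ± 0.29). The highest of the 6 values was in day 1 replicate 3 for 19 of the 21 markers, and the lowest in day 7 replicate 3 for all 21. Without day 1 replicate 3 the counts were 3 higher and 18 lower (median -0.25), and without day 7 replicate 3 they were 3 and 18 (median -0.21). With the number range as a covariate they were 4 and 17 (median -0.19). In saline animals 2 were higher and 19 lower (median -0.13). Oligodendrocyte precursor markers had 1 of 11 higher and 10 lower (median -0.21). Without day 1 replicate 3 they were 0 and 11 (median -0.13), and without day 7 replicate 3, the lowest library for 8 of them, 3 and 8 (median -0.10). Gpr17, a receptor of this stage, lay at 6.77, 6.15 and 6.56 FPKM on day 1 and 4.41, 5.61 and 4.07 FPKM on day 7 (-0.40 ± 0.14).

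Markers of neighbouring tissue also varied between libraries. Ttr, the transthyretin gene of the choroid plexus, measured 91.1, 18.1 and 42.9 FPKM on day 1 and 20.3, 0.911 and 24.4 FPKM on day 7 (-2.08 ± 0.98), and 1.63 to 12.9 FPKM in saline animals. Only 3 of 12 choroid plexus markers passed the filter, so this list rests on few genes. All 3 were lower on day 7 of amphetamine (median -0.40), as they also were between the saline days (median -0.24). Of 8 tested ependymal markers, 2 were higher and 6 lower (median -0.34), and the median was -0.04 without day 7 replicate 3 and -0.09 without day 1 replicate 3. With the number range as a covariate 5 were higher and 3 lower (median 0.04). Between the saline days 0 were higher and 8 lower (median -0.38). Slc17a7, the vesicular glutamate transporter of cortical neurons, measured 1.61, 12.7 and 1.76 FPKM on day 1 and 1.29, 3.48 and 7.49 FPKM on day 7, so its highest value was in day 1 replicate 2. That library was the highest for 8 of the 9 tested cortical markers. Of the 9, 2 were higher and 7 lower (median -0.09). Without that library they were 7 and 2 (median 0.10), and without day 7 replicate 1 also 7 and 2 (median 0.04). The part of such tissue in any difference given here was not tested. Astrocyte markers had 3 of 15 higher and 12 lower (median -0.10). Without day 7 replicate 3, the lowest library for 12 of them, they were 4 and 11 (median -0.03), and without day 1 replicate 3 they were 2 and 13 (median -0.04). Gja1, the gap junction protein connexin 43, lay at 60.3, 67.4 and 73.0 FPKM on day 1 and 54.8, 61.7 and 46.4 FPKM on day 7 (-0.30 ± 0.12). Microglia markers had 6 of 16 higher and 10 lower (median -0.04), and 9 and 7 after rescaling by the median of ratios. Endothelial and mural markers had 13 of 18 higher and 5 lower (median 0.11), and 17 and 1 in saline animals (median 0.15). Blood transcripts had 5 of 7 higher and 2 lower (median 0.19, and 0.08 without day 7 replicate 3), with Hbb-b1 up to 81.5 FPKM in day 7 replicate 3 of amphetamine and up to 199 FPKM in saline day 7; haemoglobin genes are near-identical copies and their values are uncertain.

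Housekeeping groups showed small negative medians that were partly shared with saline animals. Of 76 cytosolic ribosomal protein genes, 3 were higher and 73 lower on day 7 of amphetamine (median -0.17), 22 were lower at an unadjusted p under 0.05 (28.9%, beside 7% of all genes), and 21 had separate groups (27.6%, beside 10.7%). After rescaling by the median of ratios 12 were lower at an unadjusted p under 0.05, beside 3.51% of all genes, and 6 were higher and 70 lower. Saline animals had the same split, 3 higher and 73 lower (median -0.13). Day 1 amphetamine replicate 3 held the highest of the 6 values for 67 of the 76. Without it 5 were lower at an unadjusted p under 0.05, beside 4.47% of all genes in that fit, and the median was -0.10. Without day 1 replicate 2, 42 were lower, beside 8.97% of all genes, and the median was -0.24. Rps20 measured 184, 181 and 192 FPKM on day 1 and 156, 157 and 153 FPKM on day 7 (-0.26 ± 0.06, limma adjusted p = 0.372), with -0.16 ± 0.06 in saline animals. Ribosomal protein genes have many near-identical pseudogenes, so their FPKM are uncertain.

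Of 78 oxidative phosphorylation subunits, 5 were higher and 73 lower under amphetamine (median -0.09) and 51 were higher and 27 lower under saline (median 0.03). Ndufa2, a complex I subunit, measured 78.4, 62.4 and 82.8 FPKM on day 1 and 65.4, 55.0 and 59.9 FPKM on day 7 (-0.30 ± 0.11). After rescaling by the median of ratios, where 49.97% of all tested genes were lower, 19 were higher and 59 lower. The 7 subunits with separate groups (8.97%) were a share near the 10.7% of all genes. Replicate 3 of day 1 held the highest value for 59 of the 78, and without it 21 were higher and 57 lower (median -0.03). Without replicate 2 of day 1, 1 was higher and 77 lower (median -0.14). With the number range as a covariate 47 were higher and 31 lower (median 0.02), so the direction of this group turned under that assumed range effect. Under it the share of all tested genes that were lower also moved, from 65% (median -0.05) to 54.9% (median -0.02). Of 26 heat shock and chaperone genes, 3 were higher and 23 lower (median -0.07), 8 and 18 after rescaling by the median of ratios, 12 and 14 with that covariate, 9 and 17 without day 1 replicate 3 and 6 and 20 without day 7 replicate 3 (both medians -0.04). Cct5, a chaperonin subunit, measured 58.9, 56.7 and 61.9 FPKM on day 1 and 52.9, 48.2 and 51.3 FPKM on day 7 (-0.22 ± 0.07). Of 25 unfolded protein response genes, 6 were higher and 19 lower (median -0.06), 10 and 15 after rescaling, and 16 and 9 with the covariate. Without day 1 replicate 3 they were 11 and 14 (median -0.01), and without day 7 replicate 3 they were 9 and 16 (median -0.03).

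Glucocorticoid-responsive genes, which follow stress hormone, had 3 of 23 higher and 20 lower on day 7 of amphetamine (median -0.31) and the same split in saline animals (median -0.20). Tsc22d3, a glucocorticoid-induced leucine zipper, measured 39.3, 41.3 and 61.8 FPKM on day 1 and 30.4, 41.0 and 26.4 FPKM on day 7 (-0.52 ± 0.22), beside -0.57 ± 0.22 in saline animals. Sgk1, a serum and glucocorticoid regulated kinase, measured 90.5, 88.8 and 117 FPKM on day 1 and 73.3, 81.5 and 71.7 FPKM on day 7, without overlap (-0.37 ± 0.17, limma adjusted p = 0.522). Fkbp5, a chaperone of the glucocorticoid receptor, differed by -0.04 ± 0.09. Without day 1 replicate 3 the list's median was -0.13, without day 1 replicate 2 it was -0.41, and with the number range as a covariate it was -0.06. Of 22 circadian clock genes, 11 were higher and 11 lower (median 0.02). At an unadjusted p under 0.05, 0 were higher and 2 lower (9.09%), beside 2.48% and 7% of all genes. The groups did not overlap for 1 higher (4.55%) and 3 lower (13.6%), beside 3.55% and 10.7% of all genes. Per2 was in none of these counts. Per2, a repressor of the clock, measured 10.6, 12.1 and 16.7 FPKM on day 1 and 16.3, 15.99 and 14.7 FPKM on day 7 (0.26 ± 0.16), beside -0.30 ± 0.16 in saline animals.

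**Figure D5:**
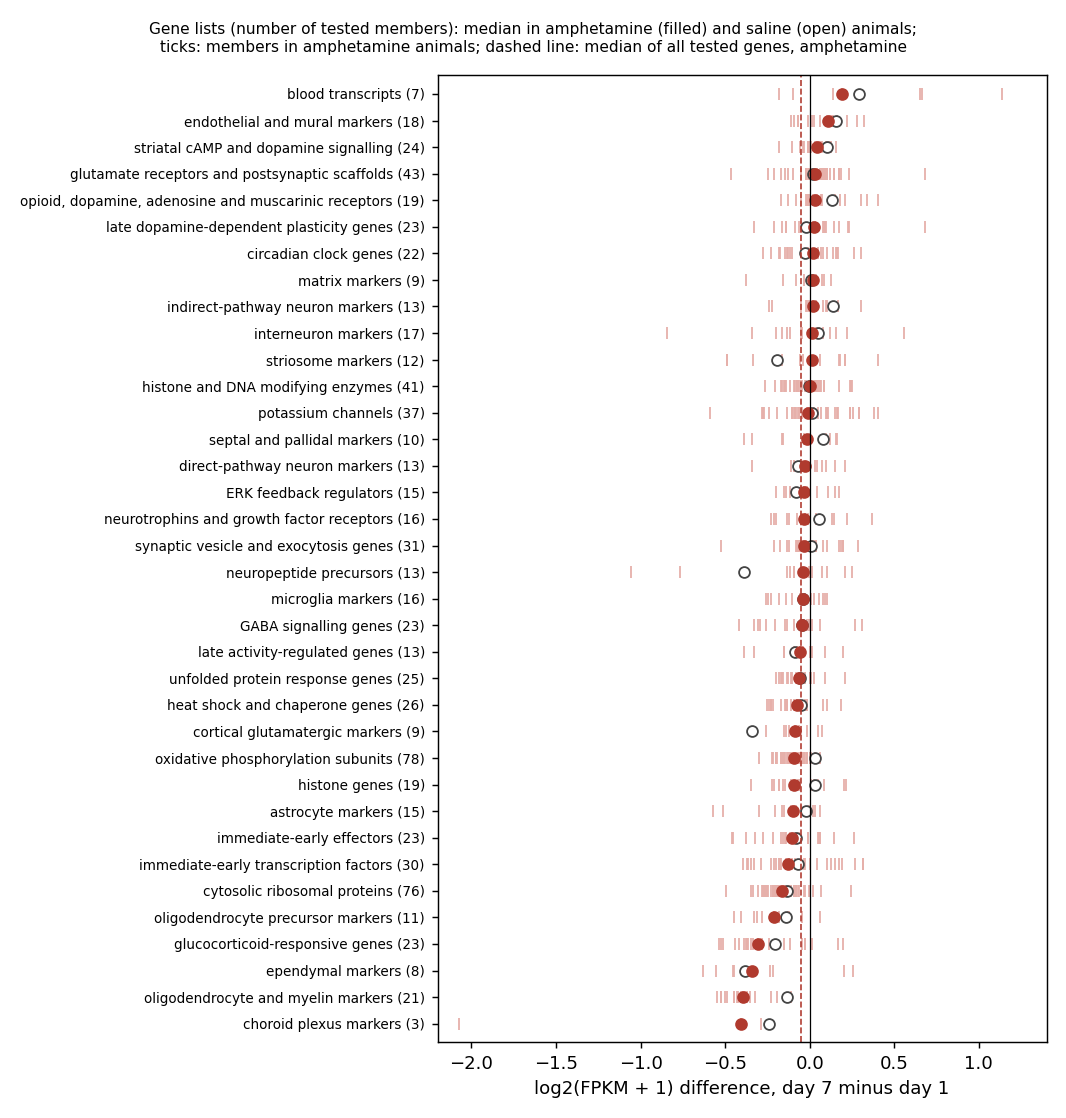
Median log2(FPKM + 1) difference, day 7 minus day 1, for 36 gene lists with their number of tested members, in amphetamine animals (filled) and saline animals (open), with ticks for the members in amphetamine animals and a dashed line at the median of all tested genes. The oligodendrocyte list lies at -0.39 under amphetamine and -0.13 under saline.

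Whether the day difference depended on the drug was tested as the difference of the 2 day differences, and 0 genes (0%) passed. At an unadjusted p under 0.05 there were 699 (5%), the number chance gives, and the smallest limma adjusted p was 0.693. In saline animals the gene past the threshold was Cd72, a receptor of B cells and microglia, at 0.722, 1.23 and 1.30 FPKM on day 1 and 3.48, 3.33 and 3.05 FPKM on day 7, a rise of 1.05 ± 0.13 (limma adjusted p = 0.012). Amphetamine animals had 2.72, 2.24 and 1.85 FPKM of Cd72 on day 1 and 2.60, 2.88 and 3.34 FPKM on day 7 (0.27 ± 0.13), and the 2 differences were -0.78 ± 0.18 apart (limma adjusted p = 0.693). All 3 saline day 1 animals thus lay below every amphetamine animal for Cd72. Cd72 did not pass without saline day 7 replicate 2 or replicate 3, with the replicate number as a block (smallest limma adjusted p of any gene 0.052), or in fits to the 6 saline libraries or to the 12 libraries of days 1 and 7, and a filter of 5 FPKM dropped it.

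Of the genes with the smallest p for this difference, Timm8a1, a chaperone of mitochondrial import, measured 12.7, 11.6 and 12.4 FPKM on day 1 and 9.51, 9.38 and 9.03 FPKM on day 7 of amphetamine (-0.36 ± 0.08), and 7.67, 8.91 and 10.5 FPKM on day 1 and 10.0, 10.8 and 11.3 FPKM on day 7 of saline (0.23 ± 0.08). Its groups crossed: amphetamine was above saline on day 1 and below it on day 7. Cdk19, a kinase of the Mediator complex, measured 26.5, 29.7 and 30.2 FPKM on day 1 and 25.3, 28.5 and 24.8 FPKM on day 7 of amphetamine (-0.13 ± 0.07), with 0.38 ± 0.07 between the saline days. Odz4, a teneurin of synaptic adhesion, measured 6.23, 5.88 and 5.60 FPKM on day 1 and 6.86, 7.02 and 7.03 FPKM on day 7 (0.21 ± 0.07), with -0.28 ± 0.07 between the saline days. Ndfip2, an adaptor of ubiquitin ligases, differed by -0.03 ± 0.05 under amphetamine and by 0.27 ± 0.05 under saline. Across all tested genes the day differences of the 2 treatments had a Pearson correlation of 0.000832 and a Spearman correlation of 0.165. The genes included 304 short RNA genes and 56 genes with an amphetamine difference beyond 3 log2 units. A Pearson value is sensitive to such extremes, and it was not computed without them. These animals are separate, but genes are not independent replicates and the libraries share number ranges.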

How the data were processed

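PolyA RNA of 18 striata was sequenced. The authors deposited 1 table of FPKM values with 18 columns, matched to samples by the numbers in the labels, and 0 columns of other samples. Bowtie and the build mm9 were used, per the submitters' processing notes. The quantifying program and annotation were not given in the sources used here. Nor was strand handling, so reads of overlapping or antisense genes may be mixed. No count model fits such values, which were tested as log2(FPKM + 1), which understates differences of low genes, with limma 3.58.1 in R 4.3.3: all 18 libraries, 1 mean per group, a mean-variance trend, 12 residual and 2.26 prior degrees of freedom, two-sided p adjusted over 13975 genes, threshold 0.05. A permutation of 3 against 3 animals cannot go below 0.1 and was not used. The scripts were tested on simulated data.

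Named were the 10 rises and 10 falls of smallest p with separate groups and a mean of at least 5 FPKM, clone names left out, up to 4 genes of smallest p in each of 36 lists, genes with a role in the striatum, and the 5 of smallest p in saline animals and between treatments; 1 of the rises is not reported here. The comparison, the gene lists and the named genes were chosen with earlier results of these data known. Alternatives were another pseudocount, filters, scalings, moderation, array weights, the replicate block, the number range, fewer libraries and leaving out each library; relative depth as a covariate and the spread without day 1 replicate 3 were added after seeing the data. Promoters are RefSeq's, of GRCm38.p6, not the build of the table. Figures were drawn with matplotlib 3.10.9.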

Additional observations from a re-analysis of the deposited data

How the results depend on the processing

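The count of genes past 0.05 between the amphetamine days was 0 under the alternatives run except 3: with array weights it was 3 (AK183986, F3 and Snora5c, all lower), in a fit to the 6 libraries alone 6, and in a fit to the 12 libraries of days 1 and 7 it was 2 (Snora5c and AK181029). Most of these are short or clone transcripts. Leaving out 1 library gave 0 to 0, while the genes at an unadjusted p under 0.05 fell from 1325 to 838 without day 7 replicate 3 and to 900 without day 1 replicate 3, and were 2175 with array weights. In saline animals the count of 1 became 0 with a filter of 5 FPKM, which drops Cd72, 0 with the replicate block and 10, Cd72 among them, with array weights. It was 2 in the fit to 6 libraries (Snord69 and DQ718766) and 1 in the fit to 12 (Mir677), neither with Cd72, and leaving out 1 library gave 0 to 3. The difference between treatments went from 0 to 2 in the fit to 12 libraries and gave 0 to 2 when leaving out 1 library. The causes were not tested. With the replicate block the counts were 0 between the amphetamine days, 0 between the saline days and 0 for their difference; same-numbered amphetamine animals had correlations of deviations of 0.0839, 0.0528 and 0.0277, all under 0.1, so the numbers were not taken to pair animals, although 5 of the 6 libraries correlated best with their own number, a hint from the data and not from the design. Of 3688 values of 186 named genes under 20 alternatives, 1 passed the threshold (F3), 0 turned sign with both values beyond their SE, and 57 values of 29 genes had another sign with 1 of the values within its SE. Of 360 list medians under alternatives, 306 moved by less than the spread, the pooled SD of the list's median per library within the amphetamine groups. Both replicate 3 libraries enter that spread, so the count is no measure of stability. Immediate-early transcription factors went from -0.13 to 0.01 without day 1 replicate 3 and count as unmoved, at a spread of 0.16. Of 17 lists with a median farther than 0.05 from 0, leaving out 1 amphetamine library turned the sign of 4. Depth is unknown, and 3 animals a group gave a median SE of 0.11; S100a10, at -2.00 ± 0.40, did not pass.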
